A study of Trichoderma reesei with 8 samples.

Results

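The 2 longest genes of *Trichoderma reesei* in the RefSeq annotation (assembly v2.0), TR_23171 and TR_123786, encode predicted peptaibol synthetases and are described here across 4 groups of cultures. They were picked by their protein IDs (23171 and 123786), as 2 of the 9143 genes in the table of expected counts, and both passed the filter on low counts. The sources name them in different ways. The rule that picked them calls TR_123786 *tex1* and TR_23171 *tex2*, whereas the study's own text gives *tex1* to TR_23171 and describes it as the predicted alamethicin synthase, with TR_123786 as the predicted paracelsin synthase. The genes are therefore called by their IDs.

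Peptaibols are short linear peptides rich in the non-proteinogenic amino acid aminoisobutyric acid, and carry an amino alcohol at one end. They insert into lipid membranes, where they form channels, and *Trichoderma* species are known for making them. They are not translated on ribosomes. Non-ribosomal peptide synthetases (NRPSs) assemble them, each a chain of modules in which an adenylation domain selects an amino acid, a carrier domain holds it and a condensation domain joins it to the growing peptide. With 1 module per residue, a single peptaibol synthetase is a very large protein encoded by a very long gene.

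QM6a served as the wildtype. It was grown alongside ∆*ypr2*, a deletion strain that lacks the gene of the transcription factor YPR2 from the sorbicillinoid (SOR) cluster, in liquid minimal medium with 1% microcrystalline cellulose and 0.1% peptone at 28 °C for 72 hours. Cultures of each strain were kept either in constant light (1600 lux) or in constant darkness, and mycelia of 2 biological replicates per strain and condition were sequenced. The groups thus are wildtype in light, ∆*ypr2* in light, wildtype in darkness and ∆*ypr2* in darkness. All came from precultures grown in darkness, and dark cultures were harvested under red safety light. How many independent transformants stand behind ∆*ypr2* is not given in the sources used here.

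Library totals ran from 16.9 to 22.9 Mio expected counts, so that 1 count was worth 0.0438 to 0.0579 counts per Mio (CPM). These totals are counts assigned to genes, and the study reports a clearly higher number of reads per sample. The deletion was checked first. *ypr2* had 566 and 548 counts in the wildtype in light and 3040 and 2636 in darkness, against 0 and 0 in ∆*ypr2* in light and 10 and 6 in darkness. All 8 libraries thus matched their strain labels. Replicates of a group differed by more than sampling noise, as chi-square values were 6.15 to 36.0 times their degrees of freedom, so no library was a second copy of its own replicate. In whole mycelium, fewer cells that transcribe a gene and less transcript per cell cannot be told apart. The strains also differed in growth. The study reports that biomass of the mutant in darkness fell to a small fraction of that of the wildtype, but was not significantly different in light. How far growth contributes to the deletion effects in darkness described below was not tested.

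TR_23171 lies on scaffold 24 from 123560 to 193077 (assembly v2.0), a span of 69518 bp, and TR_123786 on scaffold 26 from 276834 to 327620, a span of 50787 bp. The next longest of the 9115 genes with a span had 24630 bp, and the median gene 1503 bp. Spans include any introns, and values per kb below are per kb of span. A long gene collects many reads at a low transcript level, and this was the case for both synthetases. TR_23171 in darkness in the wildtype had a mean of 121 CPM, a level below which 79.5% of all genes lay, but only 1.73 CPM per kb, a level below which 15.9% lay. The median gene had 23.9 CPM per kb in the same libraries. With reads of 50 nt, a base of TR_23171 was covered by 0.33 to 1.58 reads on average, depending on the library, and a base of TR_123786 by 1.25 to 7.59 reads. The summed counts per gene were nevertheless large, at 462 or more in every library.

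TR_23171 was transcribed most strongly in the wildtype in darkness, and lost most of this transcript upon deletion of *ypr2*. Its counts there were 2101 and 2194, or 114 and 127 CPM, against 462 and 703 counts, or 25.1 and 30.8 CPM, in ∆*ypr2* in darkness. Both mutant libraries lay far below both wildtype libraries. The means were 121 ± 9.1 and 27.9 ± 4.0 CPM (SD, n = 2 cultures per group), a 4.30-fold lower level in the mutant. The log2 fold change was -2.10 ± 0.16 (standard error; 95% interval -2.47 to -1.74; edgeR, adjusted p = 4e-06). A gene is called regulated here at an adjusted p under 0.01 and a change of at least 2-fold. In this comparison 15.7% of the 8469 genes tested were called (6.05% lower and 9.68% higher), and 1.56% had a lower fold change than TR_23171.

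In light no difference between the strains was detected for TR_23171. The wildtype had 963 and 872 counts, or 52.7 and 50.3 CPM, and ∆*ypr2* 675 and 1216 counts, or 37.6 and 55.4 CPM. The mutant libraries thus lay on either side of the wildtype ones. Means were 51.5 ± 1.7 and 46.5 ± 12.6 CPM, with a log2 fold change of -0.14 ± 0.16 (edgeR, adjusted p = 0.72). The 95% interval from -0.50 to 0.22 leaves room for a moderate change in either direction, but not for one as large as that in darkness. In light 0.52% of all genes tested were called, 0.378% as higher and 0.142% as lower in the mutant.

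The deletion effect on TR_23171 differed between light and darkness. The difference, light minus darkness, was 1.96 ± 0.23 on the log2 scale (edgeR, interaction term, adjusted p = 0.00011), and 14.3% of all genes tested were called for such a difference, 5.94% with a positive and 8.37% with a negative one. The same value is the difference of the light response between the strains. In the wildtype TR_23171 was downregulated 2.34-fold in light compared to darkness (log2 fold change -1.23 ± 0.15, edgeR, adjusted p = 6.7e-05), where 23.8% of all genes were called (14.4% lower and 9.4% higher in light). In ∆*ypr2* the sign was opposite. Both light libraries, at 37.6 and 55.4 CPM, lay above both dark ones, at 25.1 and 30.8 CPM. The change of 0.74 ± 0.17 (edgeR, adjusted p = 0.0041), 1.67-fold, stayed below the 2-fold limit, and so TR_23171 was not among the 17.1% of all genes that were called (3.81% higher and 13.3% lower in light). Without replicate 2 of ∆*ypr2* in light this value was 0.42.

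**Figure D1:**
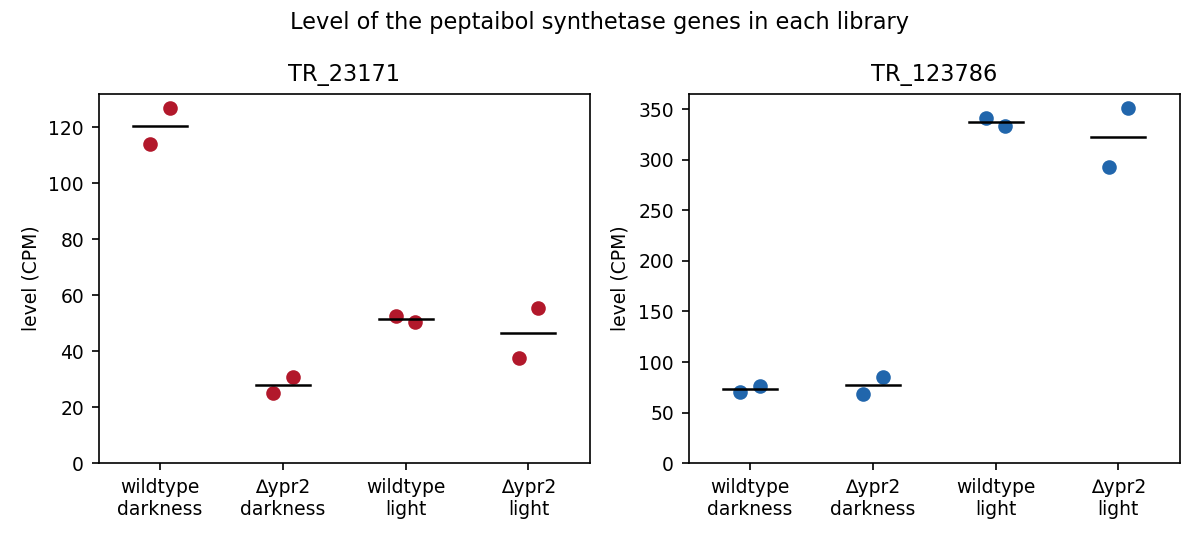
Level of TR_23171 (left) and TR_123786 (right) in CPM (linear axes from 0, with different ranges) in each of the 8 libraries. Each point is 1 culture and each line the mean of the 2 cultures of a group. TR_23171 was highest in the wildtype in darkness (114 and 127 CPM), whereas TR_123786 was at 293 CPM or more in every light library and at most 85.1 CPM in every dark one.

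TR_123786 followed light, in both strains, and no effect of the deletion was detected. In the wildtype it had 6246 and 5775 counts in light, or 342 and 333 CPM, and 1290 and 1320 counts in darkness, or 70.1 and 76.4 CPM. The mutant had 5258 and 7708 counts in light, or 293 and 351 CPM, and 1266 and 1942 counts in darkness, or 68.8 and 85.1 CPM. Every light library was thus above every dark library of either strain. In the wildtype the level was 4.61-fold higher in light, with means of 337 ± 5.9 and 73.2 ± 4.5 CPM (log2 fold change 2.20 ± 0.11, edgeR, adjusted p = 1.5e-07). In ∆*ypr2* it was 4.18-fold higher, with means of 322 ± 41.3 and 76.9 ± 11.5 CPM (2.06 ± 0.11, edgeR, adjusted p = 3.7e-07).

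The strains did not differ detectably in TR_123786 under either condition. In darkness the mutant libraries enclosed the wildtype ones, and the log2 fold change was 0.07 ± 0.11 (95% interval -0.18 to 0.33; edgeR, adjusted p = 0.59). In light they enclosed them again, with -0.07 ± 0.11 (-0.31 to 0.18; adjusted p = 0.81). A 2-fold effect of the deletion lies outside both intervals. The deletion effects in light and in darkness differed by -0.14 ± 0.16 (edgeR, adjusted p = 0.48). 

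**Figure D2:**
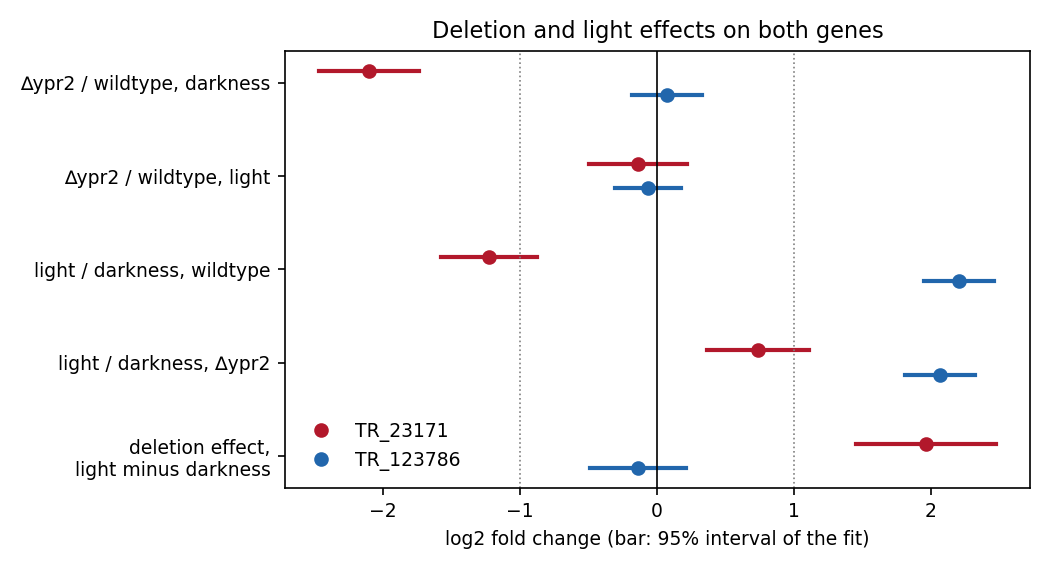
Log2 fold changes of TR_23171 (red) and TR_123786 (blue) in the 5 comparisons, with points for the fitted value, bars for its 95% interval and dotted lines at the 2-fold limits. TR_23171 was at -2.10 for the deletion in darkness and -0.14 in light, while TR_123786 was at 0.07 and -0.07, and at 2.20 and 2.06 for light in both strains.

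The levels of TR_123786 therefore fell into a high pair and a low pair. The wildtype and ∆*ypr2* in light had 6.64 and 6.34 CPM per kb, and ∆*ypr2* and the wildtype in darkness 1.51 and 1.44. Within each pair the neighbours in this order did not differ beyond their spread. TR_23171 had another order. The wildtype in darkness was at 1.73 CPM per kb, the wildtype and ∆*ypr2* in light followed at 0.741 and 0.669, not distinguishable from each other, and ∆*ypr2* in darkness was lowest at 0.402. The difference between ∆*ypr2* in light and in darkness, 1.67-fold, was not called. The wildtype in light was not tested against ∆*ypr2* in darkness. Across groups the level of TR_23171 per kb exceeded that of TR_123786 in the wildtype in darkness only.

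The ratio of both genes within a library does not depend on how libraries are scaled to each other. On the log2 scale and per kb, TR_23171 over TR_123786 was 0.25 and 0.28 in the wildtype in darkness. In ∆*ypr2* in darkness it was -1.91 and -1.92. The wildtype in light had -3.15 and -3.18, and ∆*ypr2* in light -3.41 and -3.12. All 4 dark libraries were above all 4 light libraries, although the dark libraries of both strains were themselves far apart. The mean over darkness exceeded that over light by 2.39 (exact permutation test over 70 splits, two-sided, p = 0.0286, the smallest p that 4 against 4 libraries can give). Leaving out 1 light library raised this p to 0.0857. The test pooled both strains and took no account of the strain. Group means in darkness were 0.27 in the wildtype and -1.91 in ∆*ypr2*, so the mean over darkness describes neither strain. Even its smallest p is above the threshold for calls, so the test could not have given a call. For 2 against 2 libraries the smallest p would be 0.333, and hence strains were not tested by this measure.

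**Figure D3:**
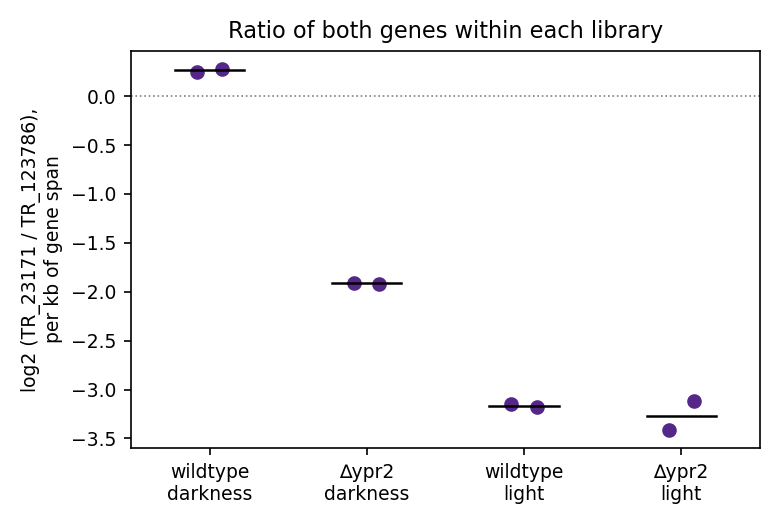
Log2 ratio of TR_23171 to TR_123786, both per kb of gene span, in each library. Points are cultures, lines the means of 2 cultures, and the dotted line marks equal levels. The wildtype in darkness lay near equal levels (0.25 and 0.28), ∆*ypr2* in darkness near -1.9, and the light libraries of both strains between -3.41 and -3.12.

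Replicate cultures of a group differed in both genes by similar factors, except in ∆*ypr2* in light. In ∆*ypr2* in darkness replicate 2 had 1.23 times the CPM of replicate 1 for TR_23171 and 1.24 times for TR_123786, and the ratio between the genes was almost the same in both cultures. In the wildtype in darkness the factors were 1.11 and 1.09, and in the wildtype in light 0.956 and 0.976. ∆*ypr2* in light had the widest spread, with 1.47 for TR_23171 and 1.2 for TR_123786. Such shifts are not particular to the synthetases. In ∆*ypr2* in darkness *vel1* and *tex19* were also higher in replicate 2, whereas *pks4* was lower.

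Genes of fungal secondary metabolism often lie in clusters with the transporters and regulators they work with. Therefore the 5 genes on each side of both synthetases were inspected. Of the 10 genes around TR_23171, 8 could be tested, and in darkness 4 of them were upregulated in ∆*ypr2* and none was downregulated, whereas TR_23171 between them was downregulated. Over all genes 9.68% were called higher in this comparison. The median log2 fold change was 1.07 over the 7 neighbours with more than 3 counts in each group, against 0.01 over all genes tested. In light none of the 8 was called, which says little where only 0.52% of all genes tested were called.

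TR_111053 is the gene next to TR_23171, 364 bp beyond its end, and is annotated as a retrograde regulation protein. In darkness it was at 12.9 and 15.2 CPM in the wildtype, but at 86.9 and 98.9 CPM in ∆*ypr2*, so that the groups were widely separated. The log2 fold change of 2.73 ± 0.11 (edgeR, adjusted p = 8.1e-08) is opposite in sign to that of TR_23171. In light the wildtype had 239 and 208 counts and the mutant 253 and 355, with 0.28 ± 0.12 (edgeR, adjusted p = 0.28). Whether the counting used strand is not given in the sources used here, and it is not known how far transcripts of neighbouring genes extend.

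TR_68169, the following gene and annotated as a putative calcium transporter, rose from 0.815 and 0.984 CPM to 6.74 and 7.58 CPM in darkness (2.99 ± 0.21, edgeR, adjusted p = 2.7e-06). This low transcript stayed between 1.04 and 1.46 CPM in all light libraries. TR_123608 and TR_111059 rose by smaller amounts, with log2 fold changes of 1.30 ± 0.11 and 1.07 ± 0.15 (edgeR, adjusted p = 9.3e-06 and 0.00024). The call of TR_111059 was lost without replicate 2 of the wildtype in darkness (0.89) and with limma-voom and quantile normalization (0.84). On the other flank, 6861 bp away, TR_111050 had only 1 count in the wildtype in darkness, against 16 in ∆*ypr2* in darkness, a ratio of 13.8 with a counting interval from 2.15 to 581.

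Of the 10 genes around TR_123786, 9 could be tested, and 3 were upregulated in ∆*ypr2* in darkness, beside a synthetase gene that did not change detectably. None was downregulated, and none was called in light. Over all genes tested 9.68% were called higher and 6.05% lower in darkness. With only 0.52% called in light, none among 9 says little about these genes. The median log2 fold change of the neighbours in darkness was 0.60. TR_81659, of unknown function, went from 6.36 and 6.14 CPM to 41.4 and 46.9 CPM in ∆*ypr2* (2.82 ± 0.11, edgeR, adjusted p = 9.4e-08). TR_5612 is annotated as a permease of the major facilitator superfamily, a family of membrane transporters, and ends 557 bp before the synthetase gene. It rose from 4.62 and 5.44 CPM to 11.8 and 10.9 CPM (1.17 ± 0.18, edgeR, adjusted p = 0.00037), but was below the 2-fold limit with limma-voom and quantile normalization (0.98). TR_81668, a low transcript of unknown function, had 22 and 14 counts in the wildtype and 43 and 69 in the mutant (1.42 ± 0.27, edgeR, adjusted p = 0.0015), and lost its call without replicate 2 of either dark group (1.17 and 1.22) and with limma-voom and quantile normalization (1.05).

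**Figure D4:**
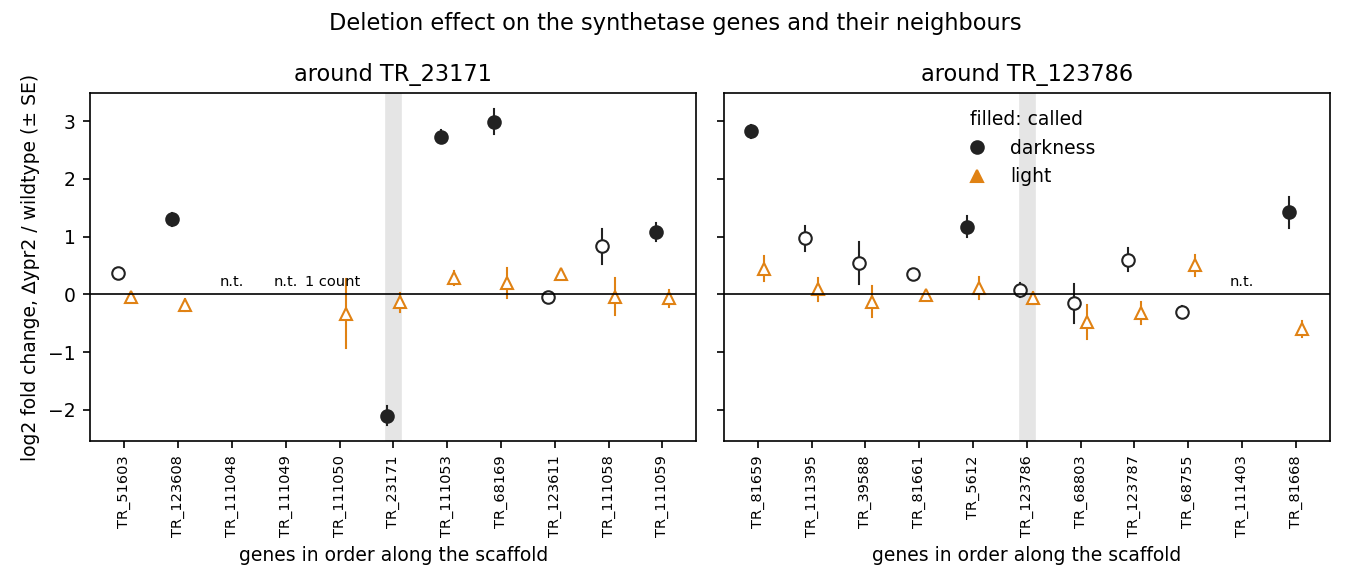
Log2 fold change of ∆*ypr2* against the wildtype (bars: standard error) for 5 genes on each side of TR_23171 (left) and TR_123786 (right), in their order along the scaffold, with the synthetase on the grey band. Circles are darkness, triangles light, and filled symbols are called genes; n.t. marks genes not tested, and 1 count marks TR_111050, whose dark value is not drawn. In darkness 4 neighbours of TR_23171 and 3 of TR_123786 were called higher (9.68% of all genes tested). None was called in light (0.52% of all genes tested).

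Of the neighbours of TR_123786, some were called in light in each direction. Of its 9 tested neighbours 2 were higher and 2 lower in light in the wildtype, where 9.4% of all genes were called higher and 14.4% lower. TR_81668 had 400 and 390 counts in light against 22 and 14 counts in darkness (4.45 ± 0.21, edgeR, adjusted p = 7.6e-08). TR_39588 rose with it (1.52 ± 0.33, edgeR, adjusted p = 0.0023), at 9 to 32 counts per wildtype library, and lost its call without replicate 1 of the wildtype in light or either dark wildtype library (1.31 to 1.55). TR_81659 and TR_68755 had log2 fold changes of -2.09 and -3.63. In ∆*ypr2*, 1 neighbour (TR_81668, 2.43) was called higher in light and 2 lower (TR_81659, -4.47, and TR_68755, -2.83), against 3.81% and 13.3% of all genes. Around TR_23171, which fell in light in the wildtype, TR_123611 fell as well (-1.18 ± 0.09, edgeR, adjusted p = 1.8e-06) and TR_123608 rose (1.47 ± 0.11, edgeR, adjusted p = 2.2e-06). TR_111050 was also called, on 17 counts in light against 1 in darkness (counting interval of the ratio 2.67 to 712), a call that was lost without any of the 8 libraries except those of ∆*ypr2* in darkness.

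Other genes of peptide synthesis showed both directions in darkness. The list holds 6 genes: TR_60751, related to ferrichrome synthases, the siderophore synthetase homologue *sidD*, *tex19*, the hybrid of polyketide synthase and peptide synthetase *tex11*, the candidate TR_68204, and TR_71072, which is placed in this category but annotated as a gluconate kinase. In ∆*ypr2* in darkness 4 were upregulated and 2 downregulated, with a median of 1.08 against 0.01 over all genes, of which 9.68% were called higher and 6.05% lower. Most of them had been picked out by the study on these same samples, and so their directions are not independent evidence. TR_71072 passed the filter on low counts only through ∆*ypr2* in darkness (5.11 and 4.95 CPM, against 0.597 and 0.463 CPM in the wildtype in darkness). Its higher level there is no independent result either. TR_60751, whose relatives make an iron chelator rather than a peptaibol, shared the direction of TR_23171, with 33.3 and 31.7 CPM in wildtype cultures against 5.22 and 4.20 CPM in mutant cultures (-2.80 ± 0.12, edgeR, adjusted p = 1.5e-07). So did *sidD* (-3.49 ± 0.28, adjusted p = 5.5e-06), which in light was upregulated 4.01-fold instead (edgeR, adjusted p = 0.0074) on 8 to 63 counts per library, a call that was lost without any single library except those of ∆*ypr2* in darkness. *tex19*, at 6.25 and 5.21 CPM in wildtype cultures and 11.3 and 13.9 CPM in mutant ones, moved the other way in darkness (1.14 ± 0.16, edgeR, adjusted p = 0.00024), as did *tex11* (2.30-fold, adjusted p = 0.0012), TR_68204 (1.02 ± 0.13, adjusted p = 0.00012) and TR_71072 (3.22 ± 0.24, adjusted p = 3.6e-06). The smaller of these calls each rested on 1 or more single dark libraries: *tex19* had 0.99 and TR_68204 0.85 without replicate 2 of ∆*ypr2*, and without replicate 1 of the wildtype TR_68204 had 0.99 and *tex11* 1.06, none of them called.

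Like TR_123786, TR_68204 was higher in light in the wildtype, with 56.2 and 49.8 CPM against 21.8 and 22.7 CPM (1.25 ± 0.13, edgeR, adjusted p = 2e-05). It was the single list member called higher in light, and 3 were called lower (9.4% and 14.4% over all genes), among them TR_60751 with 12 and 12 counts in light against 614 and 548 in darkness. In ∆*ypr2*, where 3.81% of all genes were called higher in light and 13.3% lower, the members called were partly others. *sidD* was called higher (2.21), opposite to its fall in light in the wildtype (-3.28), and TR_68204 had 0.60 and was not called. TR_60751 (-2.49), TR_71072 (-3.82) and *tex19* (-1.06) were called lower, the last not without replicate 1 in light (-0.92) or replicate 2 in darkness (-0.90). The fall of TR_71072 starts from ∆*ypr2* in darkness, the only group that carried it through the filter, and so is no independent result.

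Polyketide synthases join acyl units held on a carrier domain; in fungi most of them use a single set of domains again and again, unlike the module chain of a peptaibol synthetase. Of 6 such genes 4 were downregulated in ∆*ypr2* in darkness, 1 was upregulated and 1, *pks4*, stayed below the 2-fold limit, where 6.05% of all genes were called lower and 9.68% higher. The upregulated gene, *pks9g*, was at the 2-fold limit (1.00) and lost its call without replicate 2 of the wildtype (0.94), and TR_65116, with 4 to 23 counts per dark library, lost its call without either replicate of ∆*ypr2* in light or in darkness. TR_65116 also passed the filter on low counts only through the wildtype in darkness (1.25 and 0.695 CPM), so its lower level in the mutant is no independent result. The median over all 6 genes, TR_65116 included, was -1.72, and here too the study had picked most of them from these libraries. Like TR_23171, TR_60751 and *sidD*, all listed polyketide synthase genes except *pks9g* were highest in the wildtype in darkness. In the wildtype 5 of the 6 were called lower in light and none higher (14.4% and 9.4% of all genes). TR_65116, carried through the filter by that dark group, is among them. The deletion effects of *sor2* and TR_81964 in darkness were -1.51 and -2.38. *pks5g* had 3827 and 3671 counts in the wildtype in darkness and 921 and 1346 in ∆*ypr2* in darkness. In light it had 1254 and 1066 counts in the wildtype and 1168 and 1668 in ∆*ypr2*. Its deletion effect was -1.94 ± 0.09 in darkness (edgeR, adjusted p = 2.5e-07), and it also fell in light in the wildtype (-1.69 ± 0.09, adjusted p = 2.3e-07). In light none of the 6 was called in the mutant, against 0.52% of all genes tested. TR_81964 and TR_65116 had at most 2 counts in any light library.

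Of 2 regulators of light response and secondary metabolism, the velvet gene *vel1*, a regulator of development and secondary metabolism, was upregulated in ∆*ypr2* in darkness, from 188 and 199.9 CPM to 387 and 481 CPM (1.16 ± 0.10, edgeR, adjusted p = 9.1e-06), and had -0.03 ± 0.10 in light (adjusted p = 0.91). The photoreceptor gene *env1* had 160 and 93 counts in the wildtype in darkness and 156 and 239 in the mutant, which did not pass the test (0.43 ± 0.20, edgeR, adjusted p = 0.084). In light it reached 380 and 420 CPM in wildtype cultures, against 351 and 316 CPM in the mutant, so that its order over the groups was like that of TR_123786.

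Across the 8 libraries and among 7341 genes with enough counts, the pattern of TR_61642 was most similar to that of TR_123786 (Pearson's r = 0.996 on log2 values), with 28.2 and 29.1 CPM in darkness and 73.0 and 75.5 CPM in light in the wildtype and ∆*ypr2*, respectively. This measure compares the shape over libraries, and not the level or the size of a change. TR_60551, TR_68497, TR_21396 and TR_107402 followed (r = 0.994 to 0.995). For TR_23171 the most similar genes were TR_70266 and TR_122304 (r = 0.989 each), TR_65292 (0.981), TR_47670 (0.980) and TR_123324 (0.979). TR_65292 had 126 and 64.7 CPM in darkness and 81.9 and 81.3 CPM in light in the wildtype and ∆*ypr2*, a shallower change than that of TR_23171. The others changed less still, such as TR_122304 with 184 and 141 CPM in darkness in the wildtype and ∆*ypr2*. The synthetases themselves had r = -0.16 with each other. The 8 libraries form 4 groups of 2, and these values therefore describe mainly the likeness of 4 group levels.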

How the data were processed

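The authors sequenced mycelial RNA with single 50 nt reads, mapped them with Bowtie2, processed the mappings with SAMtools and bedtools, counted with RSEM and tested with edgeR. The sources used here give no versions. The table deposited by the authors holds expected counts per gene, not normalized, for 9143 genes; they were rounded to whole numbers here. Reads shared by similar genes were apportioned by that estimate, which could affect the repetitive modules of synthetase genes.

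One edgeR (4.0.16, R 4.3.3) quasi-likelihood fit was made over all 8 libraries with TMM scaling, 1 mean per group and 4 residual degrees of freedom, on the 8469 genes that reached 0.5 CPM in 2 or more libraries. The call required a Benjamini-Hochberg adjusted p under 0.01 over all genes tested and a change of at least 2-fold. The fit was tested on simulated data with planted changes, drawn with a spread that the fit itself had estimated. Error rates for 2 real cultures per group were not tested by this. Likeness was Pearson's r on log2(CPM + 0.5), among genes averaging 5 CPM or more. Intervals are at 95%, and counting intervals cover counting error only. With 2 cultures per group, p-values rest on a spread shared across genes and groups.

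Named genes are the synthetases, *ypr2*, 5 neighbours on each side, members of lists of peptide synthetases, polyketide synthases and regulators whose function a source gives, and the 5 genes most alike. The members and lists were chosen with earlier results of these data known. Listed genes without such a source were left out. Gene spans came from RefSeq (v2.0), where 9115 IDs matched. Alternatives were DESeq2 (1.42.0), limma-voom (3.58.1) with quantile normalization, the exact test of edgeR, upper-quartile scaling, no filter, only the 4 libraries compared, a replicate block, a threshold of 0.05 and leaving out each library. *pks5g* was singled out among its list after its values were seen.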

Additional observations from a re-analysis of the deposited data

Results flagged for a closer look

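For the genes given here the deletion effect differed between light and darkness by the interaction term of edgeR (light minus darkness, log2 scale, adjusted p under 0.01 and a difference of at least 2-fold, which 14.3% of all genes tested reached). TR_23171 had a positive difference, 1.96 ± 0.23 (adjusted p = 0.00011), as had *sidD* (5.49 ± 0.42, adjusted p = 9.2e-06), TR_60751 (3.09 ± 0.33, adjusted p = 7.3e-05), *pks5g* (2.06 ± 0.13, adjusted p = 3.5e-06) and *sor2* (1.47 ± 0.35, adjusted p = 0.007) of the lists. That of *vel1* was negative (-1.19 ± 0.14, adjusted p = 0.00012). Among the neighbours of TR_23171, TR_111053 and TR_68169 had -2.46 ± 0.16 and -2.79 ± 0.35 (adjusted p = 3.8e-06 and 0.00018), and TR_123608 and TR_111059 had -1.49 ± 0.15 and -1.14 ± 0.21 (adjusted p = 5.1e-05 and 0.0018). Among the neighbours of TR_123786 the values were -2.38 ± 0.26 for TR_81659, -2.02 ± 0.31 for TR_81668 and -1.07 ± 0.26 for TR_5612 (adjusted p = 7.3e-05, 0.00055 and 0.0078). The call of TR_5612 was lost in 7 of 14 alternative settings, with values from -1.36 to -0.81 over single libraries left out. That of TR_111059 was lost without replicate 1 of the wildtype in light (-1.07) and without replicate 2 of the wildtype in darkness (-0.96), and also with limma-voom and quantile normalization (-0.91). With the latter TR_81668 lost its call as well (-1.61). The call of *sor2* was lost without any single library except those of the wildtype in darkness (1.33 to 1.62). What sets these differences was not tested.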

How the results depend on the processing

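For both synthetases 152 of 156 values under alternative settings kept their direction and their side of the threshold. The other 4 changed sign close to zero and were not called in any setting: TR_123786 in darkness (-0.080) and its difference between conditions (0.020) without replicate 2 of ∆*ypr2* in darkness, and TR_123786 (0.059) and TR_23171 (0.11) in light without replicate 1 of ∆*ypr2* in light. The deletion effect on TR_23171 in darkness ranged from -2.25 to -1.96 over the 16 alternatives, the same range as when leaving out each library. Over those left out, TR_123786 in darkness ranged from -0.080 to 0.22, its light value from -0.20 to 0.059, its difference from -0.29 to 0.020, and TR_23171 in light from -0.45 to 0.11. The ratio of both genes ranged from 2.02 to 2.76, with an exact permutation p of 0.0857 without any one light library. The number of genes called in light (44) was 86 with the exact test, 72 with only the 4 libraries compared, 75 at a threshold of 0.05, and 11 to 60 without single libraries, lowest without replicate 2 of the wildtype in light. Counts of neighbours were recomputed after seeing the data. For TR_23171 they were 3 to 5 of 8, and for TR_123786 2 to 4 of 9 without single libraries and 1 with limma-voom and quantile normalization. The causes were not tested.

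The deviations of equally numbered libraries correlated between -0.09 and 0.08, so no pairing by replicate number was seen over the genes together. This measure cannot show a pairing that acts on few genes. When the replicate number entered as a block, no call of a synthetase changed, while TR_111050 for light in the wildtype, *sidD* for the deletion in light and TR_65116 for the deletion in darkness lost theirs (edgeR, adjusted p = 0.014, 0.012 and 0.011). The 2 cultures per group limit what was detectable in light.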
